A study of Mus musculus with 96 samples.

Results

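The 37 genes described here encode the machinery of DNA replication and mitosis together with the cyclins and transcription factors that act around it. They were chosen by gene symbol from the deposited expression table, in which each symbol has 1 row, and they are 37 of 21990 genes listed and of 20155 genes with values. RNA sequencing was carried out on islets and liver of 48 male C57BL/6N mice, and each mouse gave 1 islet and 1 liver library. Mice were bought at 4 weeks of age and fed a high-fat diet (HFD, D12492, 60% fat) or a chow diet (CD, LabDiet), and 4 mice of each diet were taken at weeks 4, 8, 12, 16, 20 and 24. The age at which feeding began is not given in the sources used here. All mice were wild type, and the labels name no treatment other than the diets. The study also took values of glucose and insulin tolerance tests from the mice that were sequenced. By staining, it reported a transient early rise with HFD in the share of beta cells that carried a proliferation marker. It also described early upregulation of cell cycle pathways in its islet sequencing. Week is at the same time age, and whether the weeks were also processed as batches is not stated, so these cannot be told apart. HFD and CD differ in their whole composition, not in fat alone.

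A dividing cell copies its genome in S phase and separates the copies in mitosis. Replication genes such as those of the MCM helicase are transcribed from late G1 on, under E2F transcription factors, and the mitotic genes peak in G2 and M under Foxm1, B-Myb and the MuvB complex. In adult islets and adult liver most cells are quiescent, beta cells and hepatocytes replicate rarely, and D-type cyclins couple growth signals to entry into the cycle. Ccnd2 is the D-type cyclin on which postnatal expansion of mouse beta cells depends.

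The libraries carried the markers of their tissues. Summed levels of 8 beta cell markers lay between 575160 and 992120 FPKM (fragments per kilobase of transcript, scaled to the mapped fragments of the library) in islets, and those of 8 hepatocyte markers lay between 33428 and 75974 FPKM in liver. Ins1 and Ins2 together made up 53.7% to 75.1% of the summed FPKM of an islet library, which is a share of FPKM and not of fragments. Acinar markers were present in all islet libraries, with sums from 2982 to 92639 FPKM over 10 genes. In 4 liver libraries (CD304, CD306, CD407 and HFD617) beta cell markers summed to 489 to 3768 FPKM. In 9 islet libraries (CD203, CD407, CD501, CD505, CD606, CD608, HFD113, HFD118 and HFD511) T cell markers exceeded 2 FPKM. Counts of mean effects and trends are given again without these libraries, and weekly counts are not. Read counts are not in the table, and the depth behind a single value is therefore unknown.

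Promoter windows of some of the genes are shown first, because a pair of short motifs stood mainly in the mitotic genes and another mainly in the helicase genes. The windows are from RefSeq (mouse build GRCm38.p6), are written 5′ to 3′ on the strand of the gene and overlap neither the gene as the deposited table places it nor an exon of GENCODE vM21. Capitals mark CCAAT or its reverse ATTGG (the CCAAT box), TTTGAA or its reverse TTCAAA (the cell cycle homology region, CHR), and E2F letters (TTTCCCGC, TTTGGCGC, TTTCGCGC or TTTGCCGC on either strand, with overlapping matches joined in 1 run). The CHR letters of Ccnb2 lie outside the stretch shown. The first 6 windows are mitotic genes that were lower in HFD islets, and the last 2 are replication genes that differed between the diets in both tissues. They were not ranked by difference: Ccnb1 and Birc5 differed more in islets than Cdk1 and Kif11, held no CHR letters and are not shown. Mcm2, the gene of largest difference in liver, held CHR letters but no E2F letters and is not shown either.
Cdk1, chr10:69352939-69353062, minus strand: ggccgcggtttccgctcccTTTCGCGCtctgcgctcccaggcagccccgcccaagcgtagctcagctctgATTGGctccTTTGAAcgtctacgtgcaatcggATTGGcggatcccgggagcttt
Ccnb2, chr9:70421555-70421674, minus strand: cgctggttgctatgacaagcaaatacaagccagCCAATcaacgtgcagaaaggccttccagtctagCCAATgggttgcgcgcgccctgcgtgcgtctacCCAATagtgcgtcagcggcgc
Cdc20, chr4:118437353-118437463, minus strand: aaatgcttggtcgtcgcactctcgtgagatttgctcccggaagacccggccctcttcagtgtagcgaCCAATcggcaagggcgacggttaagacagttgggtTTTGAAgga
Top2a, chr11:99024206-99024309, minus strand: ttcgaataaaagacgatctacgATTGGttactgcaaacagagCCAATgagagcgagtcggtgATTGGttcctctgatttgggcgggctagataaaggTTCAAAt
Kif11, chr19:37376262-37376381, plus strand: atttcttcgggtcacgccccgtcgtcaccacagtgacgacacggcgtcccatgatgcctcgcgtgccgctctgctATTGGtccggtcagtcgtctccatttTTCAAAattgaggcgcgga
Mki67, chr7:135716460-135716579, minus strand: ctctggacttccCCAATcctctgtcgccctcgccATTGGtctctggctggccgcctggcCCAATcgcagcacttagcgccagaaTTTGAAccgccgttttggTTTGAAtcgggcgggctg
Mcm5, chr8:75109349-75109468, plus strand: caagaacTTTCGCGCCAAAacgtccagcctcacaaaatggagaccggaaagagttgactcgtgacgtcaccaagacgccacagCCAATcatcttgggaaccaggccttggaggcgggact
Mcm6, chr1:128359706-128359825, minus strand: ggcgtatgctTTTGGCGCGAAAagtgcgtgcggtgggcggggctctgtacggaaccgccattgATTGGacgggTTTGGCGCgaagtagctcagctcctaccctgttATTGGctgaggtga

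Windows of 300 bases, from 250 before to 50 after the start, were found for 29 of the 37 genes. Letters of the CHR stood in 14 of 19 mitotic genes (73.7%), in 1 of the 10 others (Mcm2) and in 20.2% of 27025 genes of the table. Of windows of the same length, 17.9% held them. A CCAAT box stood in 25 of the 29 (86.2%) against 41.1% of all genes and 37.4% of all windows, and all 15 genes with a CHR also had a CCAAT box, a pair that 7.97% of all genes had. E2F letters were found in 5 of the 29 (17.2%), against 2.60% of all genes and 2.26% of all windows. Mcm3, Mcm5, Mcm6 and Mcm7, which encode helicase subunits, were 4 of these 5, and Cdk1 was the other. Birc5, Nusap1, E2f1 and Tyms held none of the 3. A match of letters describes the window and is no evidence of binding, and genes without a match can be bound through other letters.

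The 37 genes spanned more than 3 orders of magnitude in islets. Since FPKM is per length of transcript, levels can be set side by side between genes. The D-type cyclins stood at the top in islets, with a median over 48 libraries of 139 FPKM for Ccnd2 and 37.8 FPKM for Ccnd1, followed by the sliding clamp Pcna with 21.3 FPKM. E2f1 had 6.44 FPKM, and helicase subunits lay between 0.935 FPKM (Mcm5) and 5.05 FPKM (Mcm7). Mitotic genes were low: Mki67, whose protein Ki-67 marks cycling cells, had a median of 0.325 FPKM, Cenpf 0.075 FPKM and Bub1 0.070 FPKM. In all, 12 of the 37 genes had a median of at least 1 FPKM in islets and 10 in liver. In liver, Pcna (18.7 FPKM) was the single gene with a median of at least 10 FPKM. The median was higher in islets for 33 genes and higher in liver for 4 (Birc5, Cdca8, Mcm3 and Rrm2). The distance was widest for Ccnd2, with 139 FPKM in islets and 0.930 FPKM in liver. Since the values have 2 decimals, a level of 0.07 FPKM has 1 significant digit. Pcna, Tyms, Ccnb1 and Ccnb2 have processed pseudogenes in the annotation, and their values are uncertain as far as reads were shared with these copies.

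Diet effects were tested with limma on log2(FPKM + 0.1) in all genes with a mean of at least 0.1 FPKM over the 48 libraries of a tissue. A gene was called at a Benjamini-Hochberg adjusted p under 0.05. Fold changes are on this scale and are smaller than ratios of FPKM for genes near 0.1 FPKM. All 37 genes passed this filter in islets and 34 in liver, where Bub1, Cenpe and Cenpf lay under it. A lower value in whole tissue can stem from fewer cells of a type or from less RNA per cell, and these cannot be told apart.

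In islets, the mean over the 6 weeks was lower in HFD than in CD mice for 30 of the 37 genes, where 24.7% of all 14692 genes tested were called lower. The single gene that was higher was E2f1, beside 14.9% of all genes. The median difference of the 37 genes was -0.65 on the log2 scale, beside -0.03 for all genes. The mitotic genes accounted for most of it, with 21 of 23 lower and a median of -0.91, and the other 14 genes had 9 lower and a median of -0.15. Rescaling the libraries without insulin turned the share of higher genes among all called genes from 37.6% to 69.9%, while the 37 genes then had 26 lower and 1 higher. The median of all genes moved to 0.05 and that of the 37 genes to -0.59. Without the 9 islet libraries rich in T cell markers, 26 were lower and 1 was higher.

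**Figure D1:**
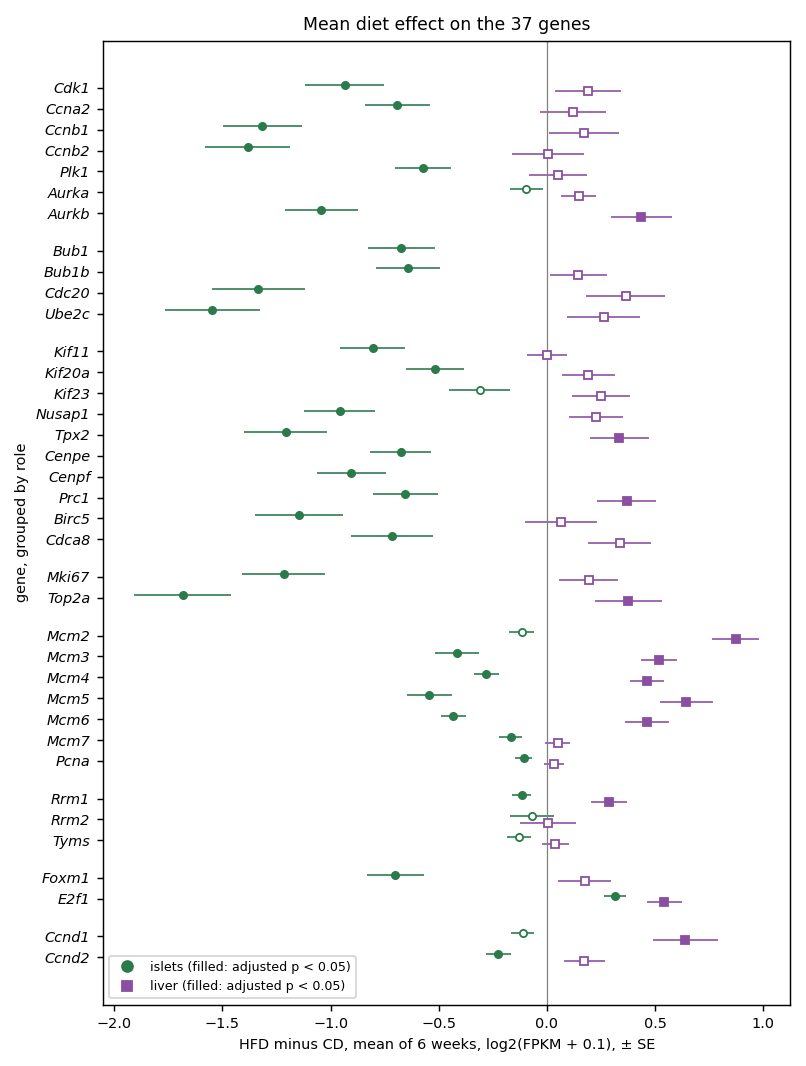
Mean difference between HFD and CD over 6 weeks for each of the 37 genes in islets (circles) and liver (squares), in log2(FPKM + 0.1) with standard errors. Filled symbols passed an adjusted p of 0.05. In islets 30 genes lie below 0 and filled, in liver 12 lie above 0 and filled, and Bub1, Cenpe and Cenpf were not tested in liver.

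Genes of chromosome structure showed the widest gap. Top2a, the topoisomerase that untangles replicated chromosomes, had 0.28 to 11.16 FPKM in the 24 CD islet libraries with a median of 1.11 FPKM. In the 24 HFD libraries it had 0.01 to 3.27 FPKM with a median of 0.175 FPKM. The ranges of Top2a overlapped, but the CD median was above most HFD libraries, and the mean difference was -1.68 ± 0.22 (SE), 3.21-fold lower (limma, adjusted p = 1.28e-07). Mki67 ranged from 0.15 to 4.89 FPKM (median 0.830) in CD and from 0.03 to 2.78 FPKM (median 0.190) in HFD mice, and it was 2.33-fold lower (-1.22 ± 0.19, adjusted p = 3.61e-06).

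Among the regulators of anaphase, Ube2c and Cdc20 fell most. Both serve the anaphase-promoting complex, Ube2c as its ubiquitin-conjugating enzyme and Cdc20 as its activator. Ube2c had 0.43 to 12.73 FPKM (median 1.48) in CD and 0.04 to 4.02 FPKM (median 0.280) in HFD islets, a difference of -1.55 ± 0.22 (adjusted p = 5.33e-07). Cdc20 had 0.17 to 8.62 FPKM (median 0.910) in CD and 0.02 to 2.41 FPKM (median 0.220) in HFD islets, a difference of -1.33 ± 0.21 (adjusted p = 4.36e-06). The checkpoint kinases Bub1 and Bub1b were lower by smaller amounts, at -0.67 and -0.64, so that all 4 genes of this group fell.

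Of the mitotic kinases and cyclins, 6 of 7 fell. The B-type cyclins, which activate Cdk1 at the entry into mitosis, led the group. Ccnb1 had 0.18 to 4.82 FPKM (median 0.490) in CD and 0.03 to 1.20 FPKM (median 0.125) in HFD islets and was 2.49-fold lower (-1.32 ± 0.18, adjusted p = 2.53e-07). Ccnb2 had 0.12 to 5.75 FPKM (median 0.710) in CD and 0.02 to 1.62 FPKM (median 0.130) in HFD islets and was 2.61-fold lower (-1.38 ± 0.20, adjusted p = 4.61e-07). Aurkb (-1.04), Cdk1 itself (-0.94), the S-phase and G2 cyclin Ccna2 (-0.69) and the kinase Plk1 (-0.57) followed. Aurka, a kinase of the spindle poles, did not pass the test, with a CD median of 1.53 FPKM, an HFD median of 1.43 FPKM and a difference of -0.09 ± 0.08 (adjusted p = 0.349).

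Spindle, kinetochore and cytokinesis genes fell in 9 of 10 cases. Tpx2, which nucleates spindle microtubules and activates Aurka, had 0.15 to 4.90 FPKM (median 0.530) in CD and 0.01 to 1.58 FPKM (median 0.115) in HFD islets and was 2.31-fold lower (-1.21 ± 0.19, adjusted p = 3.92e-06). Birc5, which with Cdca8 and Aurkb forms the chromosomal passenger complex, had 0.15 to 6.68 FPKM (median 0.655) in CD and 0.01 to 1.85 FPKM (median 0.205) in HFD islets and was 2.21-fold lower (-1.15 ± 0.21, adjusted p = 2.53e-05). The remaining 7 genes that fell lay between -0.96 (Nusap1) and -0.52 (Kif20a), among them the spindle motor Kif11 at -0.81 and the kinetochore gene Cenpf at -0.91. Kif23, a motor of the central spindle, had a difference of -0.31 ± 0.14 that did not pass (adjusted p = 0.0721).

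Replication genes were less affected in islets. Of 7 genes of the helicase and clamp, 6 fell, with Mcm5 (-0.54 ± 0.10), Mcm6 (-0.43 ± 0.06) and Mcm3 (-0.42 ± 0.10) ahead of Mcm4 (-0.28), Mcm7 (-0.17) and Pcna. Mcm6 had 3.58 to 6.92 FPKM (median 4.27) in CD and 2.44 to 5.38 FPKM (median 3.26) in HFD islets (adjusted p = 7.62e-08). Pcna, the clamp that holds DNA polymerases on the template, had 17.58 to 34.79 FPKM in CD and 16.82 to 24.45 FPKM in HFD islets, a difference of -0.11 ± 0.04 (adjusted p = 0.0251). This call was lost when insulin was left out of the total (-0.03, adjusted p = 0.652), without the T cell-rich libraries, and without week 4 or week 8. Mcm2 (-0.12, adjusted p = 0.113), the reductase subunit Rrm2 (-0.07, adjusted p = 0.627) and the thymidylate synthase Tyms (-0.13, adjusted p = 0.0670) did not pass, while the other reductase subunit Rrm1 fell by 0.12 on the log2 scale (adjusted p = 0.0371).

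The 2 transcription factors moved in opposite directions in islets. Foxm1, which drives the mitotic genes, had 0.27 to 4.24 FPKM (median 0.570) in CD and 0.18 to 1.15 FPKM (median 0.335) in HFD mice, a difference of -0.70 ± 0.13 (adjusted p = 4.30e-05). E2f1, an activator of replication genes, had 3.61 to 10.02 FPKM (median 6.04) in CD and 5.25 to 10.51 FPKM (median 6.63) in HFD mice and was 1.24-fold higher (0.32 ± 0.05, adjusted p = 3.73e-06). E2f1 was also the single gene of the 37 whose weekly difference was above 0 in all 6 weeks, whereas 27 genes were below 0 in all 6 weeks. In single weeks, 5198 (week 24) to 11289 (week 8) of all 14692 genes were below 0. How many of all genes kept 1 sign in all 6 weeks was not counted. Of the D-type cyclins, Ccnd2 had 91.52 to 219.05 FPKM (median 148) in CD and 82.33 to 178.16 FPKM (median 130) in HFD islets and was 1.17-fold lower (-0.23 ± 0.06, adjusted p = 0.00207). This call was lost in the fit that left out week 20 (-0.11, adjusted p = 0.125) and after insulin was taken out of the total (-0.14, adjusted p = 0.0549). Ccnd1 ranged from 26.61 to 62.36 FPKM in CD and from 27.65 to 67.54 FPKM in HFD islets and did not pass (-0.11 ± 0.05, adjusted p = 0.0905), but it passed without week 4 (-0.16, adjusted p = 0.0108) or week 24 (-0.19, adjusted p = 0.0100).

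Markers of other cells moved with the diet in the same islet libraries. All 4 alpha cell markers were called lower in HFD mice, with a median difference of -1.41, and their sums ran from 7221 to 16026 FPKM in CD islets and from 1215 to 15223 FPKM in HFD islets. Of 8 B cell markers 4 were lower, and their sums ranged from 3.34 to 47.44 FPKM in CD and from 3.27 to 23.52 FPKM in HFD mice. Of 10 acinar markers 4 were lower and of 5 tested T cell markers 1 was lower. Of 5 tested ductal markers 3 were lower and of 4 tested germinal center B cell markers 2. Of 6 tested erythroid markers 5 were higher, and of 9 macrophage markers 2. Of 8 beta cell markers 4 were higher and 2 lower, of 6 endothelial markers 3 higher and 1 lower, of 7 stromal markers 1 higher and 2 lower (median -0.51), and of 8 hepatocyte markers 1 higher and 2 lower. Ttr stood in both the alpha cell and the hepatocyte list, so its lower call counts in both. None of these lists had a gene at 0 in all libraries. Their part in the differences of the cell cycle genes was not tested.

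Week by week, the same comparison rested on 4 against 4 islet libraries. At week 4, 0 of the 37 genes and 0% of all genes were called by limma, and 20 of the 37 had an unadjusted p under 0.05, beside 1063 of 14692 genes. Mki67 at week 4 had 0.52, 1.77, 2.40 and 4.89 FPKM in CD and 0.28, 0.62, 0.73 and 0.79 FPKM in HFD islets. Top2a had 0.99, 3.57, 4.87 and 11.16 FPKM in CD and 0.77, 0.96, 1.31 and 1.68 FPKM in HFD islets. In both genes 3 CD libraries were above all HFD libraries and the lowest, CD101, fell among them. The mitotic genes had a median difference of -1.34 in that week. At week 8, Mcm4 and Mcm6 were lower (2 of 37, beside 2.95% of all genes). Mcm6 had 4.88, 4.91, 5.15 and 6.92 FPKM in CD and 2.90, 2.91, 3.25 and 3.58 FPKM in HFD islets, with no overlap (-0.76 ± 0.13, adjusted p = 0.0146). Mitotic genes overlapped at week 8: Mki67 had 1.45 to 2.58 FPKM in CD and 0.61 to 2.78 FPKM in HFD islets. At weeks 4 and 8 all 23 mitotic genes had a difference below 0, and none was called. This direction is opposite to the early rise that the study reported from staining and pathways. Whole-islet RNA comes from all cells of the sample, whereas the staining counted beta cells. The reason for the opposite directions was not tested. Median ratio scaling left Mcm6 as the call of week 8, moved the median of all genes from -0.13 to -0.03 and raised the share of higher genes among all called from 13.2% to 50.7%.

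Weeks 12, 16 and 24 held most of the weekly calls. At week 12, 7 genes were lower (background 3.38%) and E2f1 was higher (background 1.71%). Top2a had 0.35, 0.37, 0.48 and 0.54 FPKM in CD and 0.04, 0.05, 0.09 and 0.09 FPKM in HFD islets (-1.67 ± 0.22, adjusted p = 0.000231). Ube2c had 0.62, 0.87, 0.90 and 1.11 FPKM in CD and 0.12, 0.19, 0.22 and 0.25 FPKM in HFD islets (-1.72 ± 0.22, adjusted p = 0.000185). In both genes all CD libraries were above all HFD libraries. E2f1 had 4.81, 5.82, 5.85 and 6.39 FPKM in CD and 7.88, 9.19, 9.27 and 9.29 FPKM in HFD islets, again without overlap (0.63 ± 0.12, adjusted p = 0.00574). With insulin left out of the total, 85.6% of the genes called at week 12 were higher, against 33.6% in the table as deposited, and 6 of the 37 genes were lower and 1 was higher. The median of all genes then moved from -0.01 to 0.26, and the number of the 37 genes below 0 from 30 to 23.

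At week 16, 13 genes were lower (background 7.98%) and E2f1 was higher (background 3.16%). Mki67 had 0.26, 0.95, 1.00 and 1.22 FPKM in CD and 0.14, 0.15, 0.19 and 0.21 FPKM in HFD islets (-1.67 ± 0.35, adjusted p = 0.0104). Birc5 had 0.36, 0.63, 0.71 and 0.78 FPKM in CD and 0.01, 0.08, 0.11 and 0.12 FPKM in HFD islets (-2.01 ± 0.28, adjusted p = 0.000632). All CD libraries were above all HFD libraries in both genes, with CD403 the lowest of CD. At week 20, the calls were Ccnd1 and Ccnd2 alone, both lower (background 4.36%), and 21 of the 37 genes had an unadjusted p under 0.05. With all 48 islet libraries in 1 fit, 10 genes were lower at week 20, and without trended and robust variances limma called 0. Ccnd2 had 174, 181, 192 and 219 FPKM in CD and 82.33, 89.55, 136 and 142 FPKM in HFD islets (-0.80 ± 0.18, adjusted p = 0.0381). At week 24, 9 genes were lower (background 3.26%), all of them mitotic. Mki67 then had 0.28, 0.31, 0.62 and 1.08 FPKM in CD and 0.06, 0.10, 0.18 and 0.19 FPKM in HFD islets, without overlap (-1.42 ± 0.35, adjusted p = 0.0276).

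Over the 6 weeks, 19 of the 37 genes were lower in at least 1 week (background 12.6%) and E2f1 was higher in at least 1 (background 8.04%). Weekly counts depended on the fit and on single libraries. With all 48 libraries in 1 fit, weeks 8, 12, 16 and 24 had 3, 4, 14 and 7 calls, against 2, 8, 14 and 9 from the libraries of each week. Requiring 1 FPKM in 4 libraries left 12 genes tested at week 24, of which limma called 0. At week 16 the 14 calls became 8 without CD401, CD405 or HFD416, 9 without HFD411, HFD414 or HFD418, and 22 without CD403. At week 24 the 9 calls became 4 without CD608 or HFD616 and 5 without HFD611 or HFD617. The 2 calls of week 20 became 1 without CD507 or HFD516 and 0 without CD501, CD502, CD505, HFD517 or HFD518. The 2 calls of week 8 became 1 without CD203, CD205, CD208, HFD212 or HFD213 and 4 without HFD217. With insulin left out of the total, 83.2% of the genes called at week 16 were higher against 28.4% as deposited, and 15 of the 37 were lower and 2 higher (E2f1 and Aurka). The median of all genes moved from -0.01 to 0.18 there. At week 20 the share was 27.2% as deposited, 44.5% with median ratio scaling and 11.7% without insulin, with 2, 2 and 5 of the 37 genes lower. At week 24 it was 62.6% as deposited and 39.8% with median ratio scaling, with 9 and 10 genes lower.

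**Figure D2:**
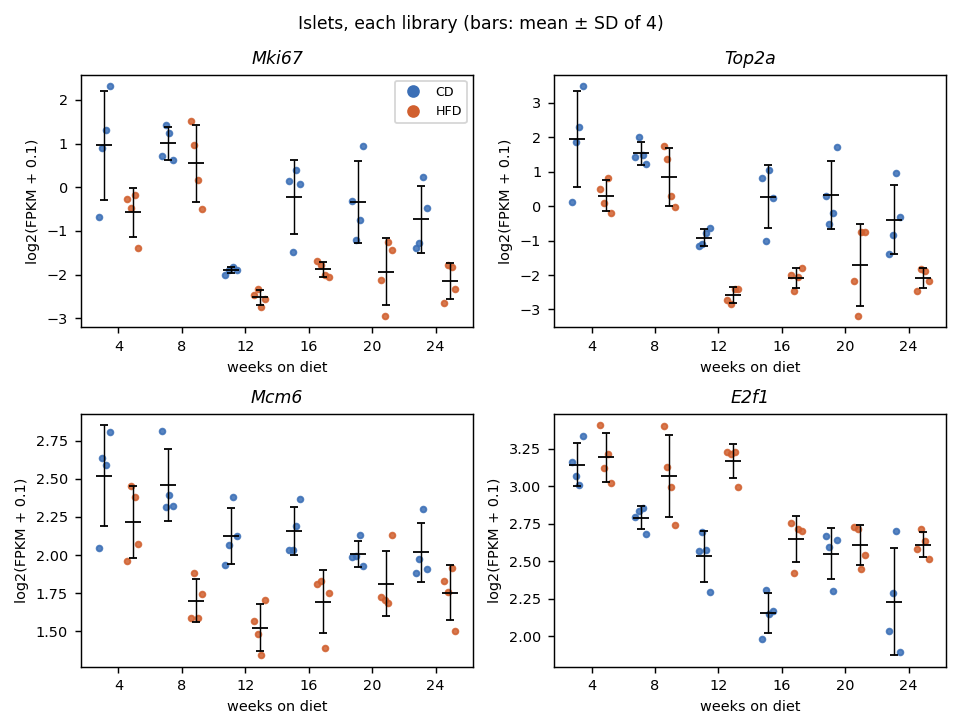
Levels of Mki67, Top2a, Mcm6 and E2f1 in each islet library by weeks on diet, as log2(FPKM + 0.1). Points are mice on CD (left of each pair) or HFD (right), and bars show the mean and SD of 4; at week 12 the diets do not overlap in any of the 4 genes, with HFD mice above CD mice in E2f1 and below them in the others, although Mki67 did not pass in that week (adjusted p = 0.108).

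In several groups 1 mouse held the highest value of most mitotic genes. Summed over the 23 mitotic genes, levels in CD islets ranged from 6.72 to 109.56 FPKM (median 15.1) and those in HFD islets went from 3.94 to 36.79 FPKM (median 6.24). In CD mice of week 4, mouse CD106 held the highest of 4 values for 23 of the 23 mitotic genes and for 12 of the 14 others, while 34.3% of all genes were highest there. At week 24, CD606 was highest for 23 of 23 mitotic genes beside 20.4% of all genes. CD205 at week 8 and CD507 at week 20 were each highest for 22 mitotic genes, but for 2 and 3 of the 14 others. Of all genes, 30.2% were highest in CD205 and 21.7% in CD507. Among HFD islets, HFD211 at week 8 was highest for 19, beside 24.0% of all genes. In HFD mice of weeks 4, 12, 16 and 24, however, no islet library was highest for more than 11 of the 23. The mitotic sum of CD106, 109.56 FPKM, was above those of the other mice of its group, with 12.79, 31.34 and 48.78 FPKM. Its acinar markers, at 20233 FPKM, and its B cell markers, at 20.41 FPKM, were also the highest of the group. CD606 had the highest sums of B cell markers (47.44 FPKM) and T cell markers (6.65 FPKM) of all islet libraries. CD608 of the same group had 42.66 and 6.48 FPKM and was highest for 0 of the 23 mitotic genes, beside 16.9% of all genes. At week 16, CD407 (38.0 and 4.06 FPKM) was highest for 1 and CD405 (9.85 and 0.90 FPKM) for 20. Of all genes, 38.6% were highest in CD407 and 28.8% in CD405. The part of these cells in the mitotic sum was not tested. The liver library of CD106 was highest for 3 of the 20 mitotic genes tested there, beside 29.4% of all genes.

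**Figure D3:**
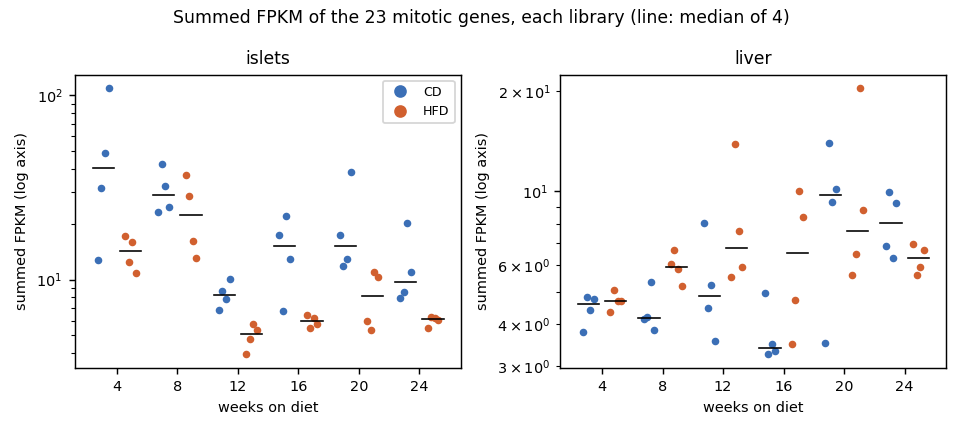
Sum of the FPKM of the 23 mitotic genes in each islet and liver library, on log axes, with a line at the median of each group of 4. In islets CD medians are above HFD medians in each week and week 12 is the lowest for both diets; in liver the highest library is HFD517 at week 20, with 20.41 FPKM.

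In liver, the mean difference was above 0 for all 34 genes tested, and 12 were called higher and none lower. Of all 13186 genes 35.1% were called higher, so that the share of the 34 is close to the background and is not a result about these genes as a group. The median difference was 0.21 beside 0.10 for all genes. The calls were uneven by role: 8 of 14 replication, transcription factor and D-type cyclin genes were higher, and 4 of 20 mitotic genes. With median ratio scaling 9 of the 34 were higher, 8 lay below 0, and the share of higher genes among all called went from 84.5% to 59.5%. Without the 4 liver libraries with beta cell transcripts, 13 were higher. Without week 12, the count was 7, with Mcm2, Mcm3, Mcm4, Mcm5, Mcm6, E2f1 and Ccnd1.

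The helicase subunit Mcm2 had the largest difference in liver, followed by Mcm5, while Ccnd1 and E2f1 came before the other subunits. Mcm2 had 0.33 to 1.06 FPKM (median 0.570) in the 24 CD livers and 0.54 to 2.63 FPKM (median 1.20) in the 24 HFD livers and was 1.83-fold higher (0.87 ± 0.11, limma, adjusted p = 3.54e-08). Mcm5 had 0.15 to 0.71 FPKM (median 0.315) in CD and 0.19 to 1.82 FPKM (median 0.56) in HFD livers (0.64 ± 0.12, adjusted p = 6.11e-05). The ranges of both genes overlapped between the diets. Mcm3 had 0.62 to 1.39 FPKM (median 0.905) in CD and 0.76 to 2.35 FPKM (median 1.33) in HFD livers (0.52 ± 0.09). Mcm4 had 0.32 to 1.16 FPKM (median 0.625) in CD and 0.45 to 1.65 FPKM (median 0.945) in HFD livers (0.46 ± 0.08). Mcm6 had 0.55 to 1.26 FPKM (median 0.865) in CD and 0.73 to 3.58 FPKM (median 1.29) in HFD livers (0.46 ± 0.10). All 5 of these subunits kept a difference above 0 in each of the 6 weeks, as did Kif20a, E2f1 and Rrm1, 8 of the 34 genes in all. In single weeks, only 3927 (week 16) to 5604 (week 8) of all 13186 genes were below 0. How many of all genes stayed above 0 in all 6 weeks was not counted. Mcm7, the subunit with the highest level, did not pass, with medians of 4.69 and 5.03 FPKM. Pcna did not pass either, with 13.09 to 22.94 FPKM in CD and 13.80 to 24.72 FPKM in HFD livers (0.03 ± 0.05, adjusted p = 0.595), and its difference was -0.055 with median ratio scaling.

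Of the regulators in liver, Ccnd1 and E2f1 rose. Ccnd1, the main D-type cyclin of regenerating hepatocytes, had 0.68 to 6.12 FPKM (median 1.72) in CD and 1.30 to 6.23 FPKM (median 3.07) in HFD livers and was 1.56-fold higher (0.64 ± 0.15, adjusted p = 0.000734). E2f1 had 0.63 to 1.25 FPKM (median 0.905) in CD and 0.86 to 2.03 FPKM (median 1.38) in HFD livers (0.54 ± 0.08, adjusted p = 1.41e-06). Ccnd2 (0.17 ± 0.10, adjusted p = 0.147) and Foxm1 (0.17) did not pass. Rrm1 was higher (0.29 ± 0.08, adjusted p = 0.00579), while Rrm2 and Tyms, the other enzymes of nucleotide supply, had differences of 0.00 and 0.04.

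The mitotic genes called in liver were Aurkb, Prc1, Tpx2 and Top2a. Tpx2 lost its call in 36 of 59 alternatives and Prc1 in 5. Aurkb had 0.02 to 0.47 FPKM (median 0.065) in CD and 0.02 to 0.88 FPKM (median 0.190) in HFD livers (0.44 ± 0.14, adjusted p = 0.0120), a call lost with a pseudocount of 1 (adjusted p = 0.0531) and without week 12 (0.28, adjusted p = 0.163) or week 16 (0.34, adjusted p = 0.108). Top2a was at the threshold (0.38 ± 0.16, adjusted p = 0.0497), lost its call in 39 of 59 alternatives, for example with median ratio scaling (0.33, adjusted p = 0.0888). Mki67 had 0.01 to 0.38 FPKM (median 0.060) in CD and 0 to 0.59 FPKM (median 0.105) in HFD livers and did not pass (0.19 ± 0.14, adjusted p = 0.260). Levels of these 5 genes were near or under 0.2 FPKM in most livers.

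**Figure D4:**
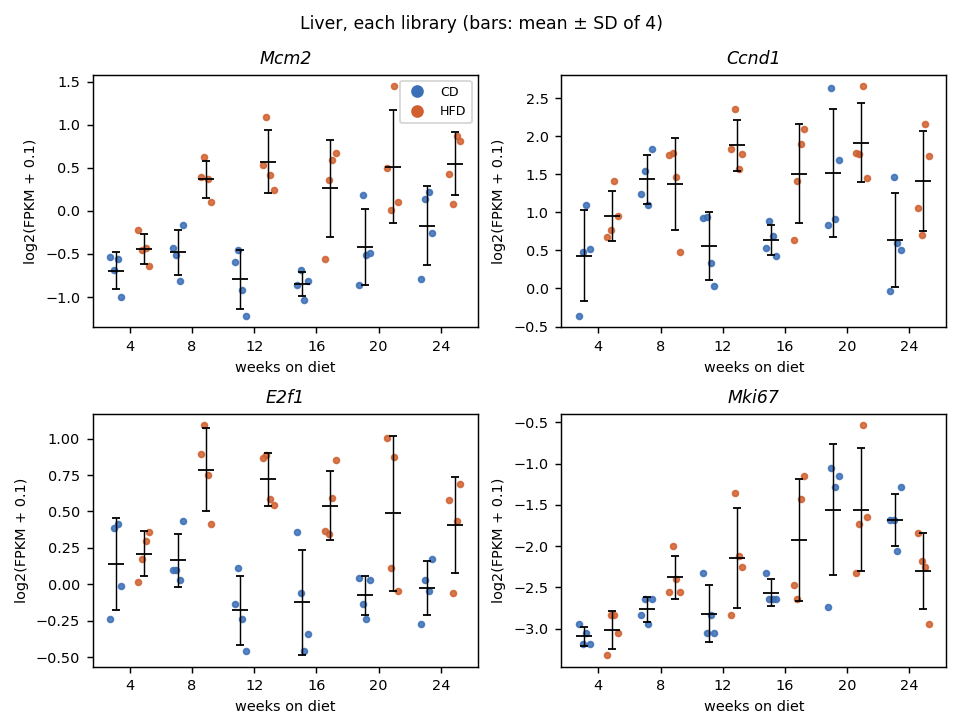
Levels of Mcm2, Ccnd1, E2f1 and Mki67 in each liver library by weeks on diet, as log2(FPKM + 0.1), with the mean and SD of 4. HFD mice stand above CD mice in Mcm2, Ccnd1 and E2f1 at week 12, and Mki67 of CD mice is lowest at week 4.

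By week, liver had 0 calls among the 34 genes at weeks 4, 20 and 24, where limma called 0.00758%, 2.66% and 0.895% of all genes in either direction and 3, 2 and 3 of the 34 had an unadjusted p under 0.05. With all 48 liver libraries in 1 fit, 2 genes were higher at week 20, 10 at week 12 and 5 at week 16. At week 8, Mcm2 was called (background 4.66%), with 0.47, 0.60, 0.64 and 0.79 FPKM in CD and 0.97, 1.19, 1.21 and 1.44 FPKM in HFD livers. At week 12, 7 genes were higher (background 7.94%): Aurkb, Mcm2, Mcm3, Mcm4, Mcm5, E2f1 and Ccnd1. Mcm2 then had 0.33, 0.43, 0.56 and 0.63 FPKM in CD and 1.08, 1.23, 1.35 and 2.02 FPKM in HFD livers (1.36 ± 0.23, adjusted p = 0.0138). Ccnd1 had 0.92, 1.16, 1.80 and 1.82 FPKM in CD and 2.87, 3.3, 3.46 and 5.02 FPKM in HFD livers (1.32 ± 0.24, adjusted p = 0.0156). The diets did not overlap in either gene. At week 16, Aurkb, Tpx2 and Mcm2 were higher (background 7.29%). With median ratio scaling the share of higher genes among all called went from 83.0% to 71.5% at week 8, from 89.1% to 66.4% at week 12 and from 92.1% to 79.5% at week 16, the median of all genes from 0.15 to 0.04 at week 12 and from 0.12 to 0.01 at week 16, and 1, 5 and 2 of the 34 genes were higher. The mitotic genes had a median difference of 0.66 at week 12 and 0.60 at week 16. At week 24, by contrast, 17 of the 20 lay below 0, with a median of -0.26 and no call. Mki67 then had 0.14, 0.21, 0.21 and 0.31 FPKM in CD and 0.03, 0.11, 0.12 and 0.18 FPKM in HFD livers.

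In at least 1 week, 8 of the 34 genes were higher in liver (background 14.1%). These counts rested on few libraries. The 7 calls of week 12 became 12 without CD304, 4 without CD306, 1 without CD307, 2 without CD308 or HFD315 and 3 without HFD318. The 3 calls of week 16 became 12 without HFD411, 1 without CD401 and 0 without CD403, CD405, CD407, HFD414, HFD416 or HFD418. The call of week 8 was lost without CD203, CD205, CD207, HFD211, HFD212 or HFD213, and without HFD217 there were 2 calls. CD304 is one of the livers with beta cell transcripts.

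Markers of other cells also moved with the diet in liver. Of 9 macrophage markers 8 were higher in HFD mice, with a median difference of 0.70 and sums of 52.62 to 160.02 FPKM in CD and 60.66 to 351.03 FPKM in HFD mice. Of 7 stromal markers 6 were higher (median 0.74), with sums of 30.01 to 94.26 FPKM in CD and 52.30 to 173.84 FPKM in HFD mice. Of 4 tested germinal center B cell markers 3 were higher (median 0.47), with sums of 10.26 to 35.06 FPKM in CD and 12.92 to 44.81 FPKM in HFD mice. B cell markers did not move with them: of 5 tested, 1 was higher and 1 lower (median -0.10). Their sums were only 1.02 to 3.55 FPKM in CD and 0.54 to 3.87 FPKM in HFD mice. Of 5 tested ductal markers 1 was higher (median -0.16), of 6 tested beta cell markers 4 were lower (median -1.20), and of 8 hepatocyte markers 1 was lower. Liver HFD517 held the highest macrophage sum, 351.03 FPKM, and at week 20 was highest of its group for 20 of the 20 mitotic genes, beside 37.9% of all genes. Its ductal markers summed to 222.19 FPKM, beside 33.59, 34.96 and 37.35 FPKM in the other livers of its group. It also had the highest stromal sum (173.84 FPKM) and the lowest hepatocyte sum (33428 FPKM) of all livers. HFD315 was highest for 19 of 20 at week 12, beside 37.9% of all genes. Whether these other cells had a part in the differences of the cell cycle genes was not tested.

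**Figure D5:**
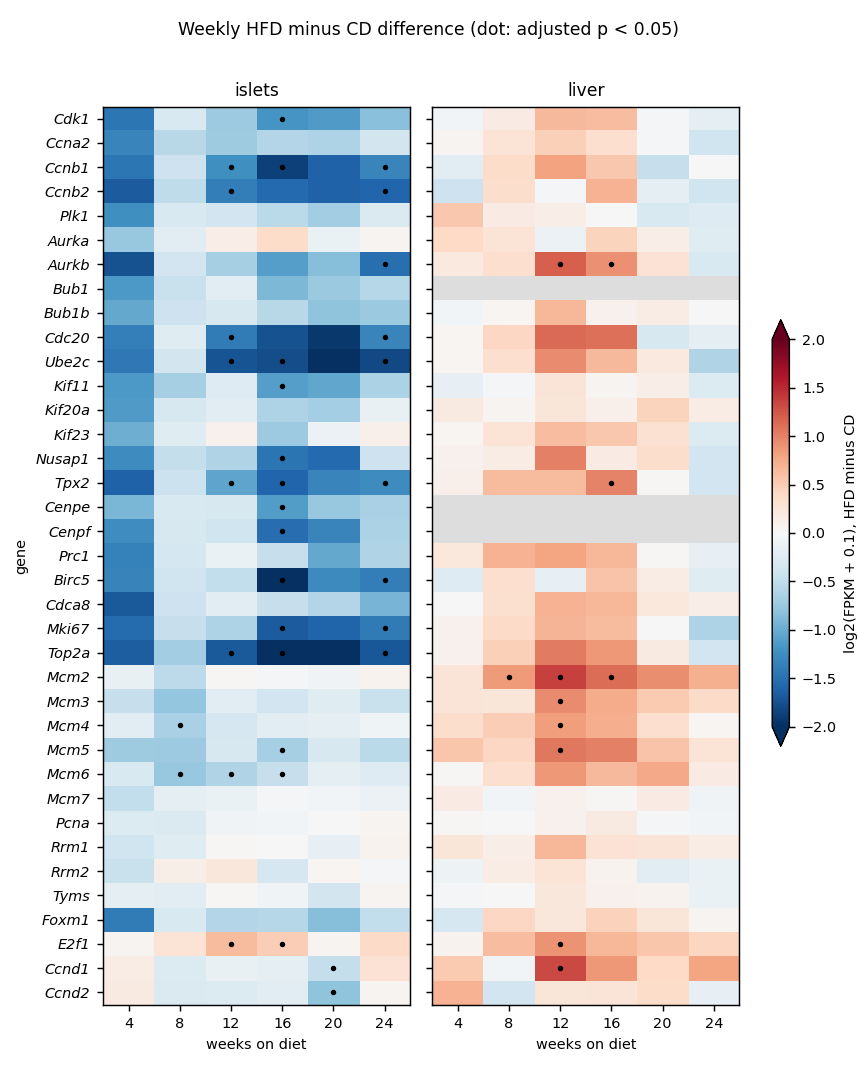
Difference between HFD and CD in each week for each gene in islets (left) and liver (right), in log2(FPKM + 0.1); blue is lower and red is higher in HFD mice, dots passed an adjusted p of 0.05 and grey marks genes under the filter. Islets are mostly blue in all weeks among mitotic genes, and liver is reddest at weeks 12 and 16.

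The diet effect differed between islets and liver of the same mice. Tested as an interaction over the 96 libraries, the mean diet effect was lower in islets than in liver for 29 of 34 genes, beside 36.2% of all 12548 genes tested, and it was higher for none. With the mouse as a replicate block, which pairs the islet and liver library of each animal, 31 were lower. The median of the 34 genes was -0.88, beside -0.13 for all genes. Among mitotic genes 19 of 20 were lower, with Top2a (-2.06 ± 0.27, adjusted p = 4.50e-09), Ube2c (-1.81 ± 0.28), Cdc20 (-1.70 ± 0.29), Tpx2 (-1.54 ± 0.24), Ccnb1 (-1.49 ± 0.25), Aurkb (-1.48 ± 0.22), Mki67 (-1.41 ± 0.24) and Ccnb2 (-1.39 ± 0.26) the farthest apart, and Aurka the exception (-0.24, adjusted p = 0.0792). Genes that differed in opposite directions in both tissues and passed in each were Aurkb, Tpx2, Prc1, Top2a, Mcm3, Mcm4, Mcm5, Mcm6 and Rrm1. Of these, Tpx2 and Top2a lost their liver call in 36 and 39 of 59 alternatives, and Rrm1 lost its islet call in 18 of 61. Mcm2 differed by -0.99 ± 0.12 (adjusted p = 9.33e-10), although it did not pass in islets. Both D-type cyclins were lower in this comparison, Ccnd1 by -0.75 ± 0.16 (adjusted p = 0.000141) and Ccnd2 by -0.40 ± 0.11 (adjusted p = 0.00272). E2f1, higher with HFD in both tissues, was among the 5 genes that did not pass, together with Aurka, Pcna, Rrm2 and Tyms. The share of higher genes among all called rose from 14.5% to 35.4% with median ratio scaling and to 33.2% with insulin left out of the islet total, and 28 of the 34 genes were lower under each. Without the T cell-rich islet libraries 27 were lower, and without the livers with beta cell transcripts 30.

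Along the weeks, cell cycle genes fell in islets of both diets. A line fitted over the 6 time points, given as the change from week 4 to week 24, was negative and called for 14 of the 37 genes in CD islets, beside 2.25% of all genes. In HFD islets it was called for 20, beside 6.85%. None of the 37 was called with a rising line in either diet. Late minus early weeks, a contrast of group means, called 19 lower and 1 higher in CD islets. In HFD islets it called 23 lower and 2 higher. Of all 14692 genes it called 1681 lower and 4819 higher in CD, and 1751 lower and 6688 higher in HFD islets. Among the called genes of CD islets the largest falls were those of Cdc20 (-1.99 ± 0.51), Tpx2 (-1.93 ± 0.51), Ube2c (-1.86 ± 0.57) and Cdk1 (-1.70 ± 0.45), followed by Prc1 (-1.47), Foxm1 (-1.34), Bub1 (-1.26) and Mcm5 (-1.03). In HFD islets the largest were those of Ube2c (-2.90 ± 0.57), Top2a (-2.74 ± 0.65), Cdc20 (-2.74 ± 0.51), Tpx2 (-2.13), Mki67 (-2.10), Ccnb1 (-2.05), Birc5 (-1.98) and Ccnb2 (-1.96). Mki67 and Top2a did not pass in CD islets (-1.54, adjusted p = 0.114, and -2.02, adjusted p = 0.0547). The mitotic sum did not fall evenly: its medians in CD islets were 40.1, 28.6, 8.25, 15.2, 15.1 and 9.77 FPKM from week 4 to week 24, and in HFD islets 14.2, 22.3, 5.04, 5.96, 8.14 and 6.13 FPKM. Week 12 had the lowest median in both diets. Acinar markers had their highest median in the same week in both diets, 51448 FPKM in CD islets against 8493 to 27547 FPKM in the other weeks, and 22636 FPKM in HFD islets against 6596 to 19344 FPKM. The median sum of stromal markers in CD islets was 45.5 FPKM at week 4 and 14.9 FPKM at week 24. Their part in the trends was not tested.

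E2f1 and Ccnd1 fell along the weeks in both diets of islets. E2f1 changed by -0.81 ± 0.14 in CD (adjusted p = 0.000175) and by -0.69 ± 0.14 in HFD islets (adjusted p = 0.000178), and Ccnd1 by -0.61 ± 0.14 (adjusted p = 0.00594) and -0.60 ± 0.14 (adjusted p = 0.00106). Ccnd2 and, in HFD islets, Pcna did not pass. Of the 7 helicase and clamp genes, Mcm2, Mcm5, Mcm6 and Pcna fell in CD islets and Mcm5 in HFD islets. The count in CD islets rested on week 4: without CD106 it was 4 and without CD104 it was 9, in place of 14. For the difference between the slopes of the diets limma called 0 of the 37 genes, beside 1.86% of all genes, and 4 had an unadjusted p under 0.05. Scaling moved the trends of all genes. With median ratio scaling the median change in HFD islets went from 0.19 to 0.00, the share of rising genes among the called from 79.9% to 43.8% in HFD and from 56.3% to 38.4% in CD islets, and 26 genes fell in HFD and 22 in CD islets. With insulin left out of the total, the share in HFD islets was 66.1%, and 16 genes fell in HFD and 7 in CD islets. Without the T cell-rich libraries 16 and 9 fell.

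In liver the lines went up. In CD livers 14 of the 34 genes rose (background 8.83%) and 11 of these were mitotic. In HFD livers 6 rose (background 10.3%), and none fell in either diet. Mki67 in CD livers had 0.01, 0.01, 0.02 and 0.03 FPKM at week 4 and 0.14, 0.21, 0.21 and 0.31 FPKM at week 24, a change of 1.56 ± 0.31 (adjusted p = 0.000595). Top2a in CD livers had 0.03, 0.06, 0.06 and 0.10 FPKM at week 4 and 0.22, 0.30, 0.45 and 0.53 FPKM at week 24, a change of 1.64 ± 0.34 (adjusted p = 0.00100). In both genes all livers of week 24 were above all livers of week 4, although a value of 0.01 FPKM is the smallest the table can show. Aurkb (1.47), Prc1 (1.40), Tpx2 (1.30), Cdc20 (1.21), Plk1 (1.11) and Kif23 (1.01) followed in CD livers. In HFD livers Top2a (1.16 ± 0.34), Foxm1 (1.12 ± 0.27), Aurkb (1.06 ± 0.34), Mki67 (0.89 ± 0.31), Mcm2 (0.72 ± 0.25) and Mcm4 (0.54 ± 0.19) rose. For the difference between the slopes limma called 0 of the 34 genes, beside 0.121% of all genes, and 0 had an unadjusted p under 0.05. The count in CD livers was 9 without CD502 or CD608. That in HFD livers was 2 without HFD114 or HFD517 and 3 without HFD112, HFD113 or HFD118. Without the livers with beta cell transcripts, 15 rose in CD and 7 in HFD livers. Macrophage markers in CD livers had median sums of 98.5, 97.5, 77.6, 58.3, 130 and 141 FPKM from week 4 to week 24, highest at weeks 20 and 24, where the mitotic sum also had its highest medians (9.72 and 8.06 FPKM). Stromal markers in CD livers had a median of 35.7 FPKM at week 4 and of 56.3 to 89.2 FPKM later. The part of these cells in the trends was not tested.

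Further genes of the same pathways were read from lists of known mitotic, replication and G1 genes. In islets, 37 of 40 tested other mitotic genes were lower in HFD mice and none higher, with a median of -0.69, among them the cytokinesis scaffold Anln (-0.94), the kinases Pbk (-1.84) and Nek2 (-1.27), and Cdca3 (-0.95). Of 36 other replication genes 22 were lower and 1 higher (median -0.23), with Orc6 of the origin recognition complex at -0.54, the repressor E2f8 at -0.80, the methylation reader Uhrf1 at -1.06 and the checkpoint adaptor Clspn at -0.72. Of 22 G1 regulators and inhibitors 6 were lower and 4 higher (median -0.07), shares near the 24.7% and 14.9% of all genes, so that these counts are not a result about the list. Among its genes, Cdkn2a (0.55) and Cdkn2c (0.43), which inhibit the kinases bound to D-type cyclins, and Men1 (0.17) were higher and Cdkn1c (-0.42) was lower. Cdkn2a had 0.34 to 1.25 FPKM (median 0.660) in CD and 0.50 to 1.97 FPKM (median 1.05) in HFD islets.

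In liver, the same lists had 6 of 23 other mitotic genes higher and 1 lower (median 0.17), and 10 of 33 other replication genes higher and 4 lower (median 0.16), beside a median of 0.10 for all genes and 35.1% of all genes higher. Incenp (0.49), which joins Birc5, Cdca8 and Aurkb in the passenger complex, and Gins2 (0.77), which joins the MCM subunits in the active helicase, were among the higher genes. Of 21 G1 regulators and inhibitors 7 were higher and none lower (median 0.11). The shares of the 3 lists were near or below that of all genes and are not a result about them. The higher G1 genes included the inhibitor Cdkn1a, with 0.15 to 31.45 FPKM (median 1.49) in CD and 0.69 to 36.85 FPKM (median 5.59) in HFD livers (1.49 ± 0.38, adjusted p = 0.00185), and Trp53, which activates it (0.24 ± 0.05, adjusted p = 0.000588).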

How the data were processed

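Poly(A) RNA of hand-picked islets and of liver was sequenced on BGISEQ-500, and the 96 libraries were grouped by the mouse identifiers of the labels into 24 groups of 4 mice. For every library the authors deposited FPKM, rounded to 2 decimals, in 1 table that has no read counts. The submitters' processing notes name HISAT2 2.0.4, Bowtie2 2.2.5, RSEM 1.1.12, DESeq2 and build GRCm38.p5, without their roles. Deposited columns of group means, the authors' comparisons (log2 ratios, p-values, and q-values headed DEGseq, a tool that the notes do not name) and cluster assignments were not used. A count-based test had been foreseen for a table of counts; because the unit is FPKM, limma 3.58.1 in R 4.3.3 was used on log2(FPKM + 0.1), with trended and robust variances, on genes with a mean of at least 0.1 FPKM. Mean effects and interactions were contrasts of group means in 1 fit per tissue or over both, weekly effects used the 8 libraries of a week, and trends were lines per diet. P-values were adjusted over all genes tested by the Benjamini-Hochberg method. For mean, weekly and interaction effects they measure the spread between mice. For the lines, the spread also holds the distance of the weeks from the line. The number of reads behind a value is unknown, so no counting interval is given.

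The 37 genes, the lists of related genes and the markers were chosen with earlier results of these data known. Mki67, Top2a, Pcna, Ccnd1, Ccnd2 and up to 8 called genes of largest change per comparison are given in full, and of each related list up to 4 called genes in order of p. The steps were tested on simulated data. No pair of libraries of 1 group was near-identical: over 144 pairs at most 0.678% of genes of 1 FPKM or more had equal values. HFD and CD mice share no numbers, and the pairing of islets with liver is by animal. Its consensus correlation was 0.0581. Alternatives were another pseudocount, other filters and scalings, a plain variance model, weekly effects from all libraries of a tissue in 1 fit, late minus early weeks in place of a line, leaving out libraries, weeks or groups of libraries, and the mouse block.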

Additional observations from a re-analysis of the deposited data

Results flagged for a closer look

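The mean diet effect differed between the tissues by the interaction test, with 29 of 34 genes lower in islets than in liver. The values were -2.06 for Top2a, -1.81 for Ube2c, -1.70 for Cdc20, -1.54 for Tpx2, -1.49 for Ccnb1, -1.48 for Aurkb, -1.41 for Mki67, -1.39 for Ccnb2, -0.75 for Ccnd1 and -0.40 for Ccnd2, on the log2 scale.

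In 13 of 216 sets of 4 values examined, 1 library lay far from the other 3. A set is a gene, or the mitotic sum, in 1 group of mice. Chance gives about 1 in 20, so this count is near chance and is not a result. Sets share libraries, and the mitotic sum contains Mki67 and Top2a, so the sets are not independent. Liver CD401 of week 16 stood above its group in Mki67 (0.10 FPKM), in Top2a (0.15 FPKM) and in the sum of the mitotic genes (4.96 FPKM, with the other 3 at 3.25 to 3.48 FPKM). Liver HFD517 of week 20 had 1.27 FPKM of Top2a, and the others of its group had at most 0.28 FPKM. E2f1 was lowest in islets of HFD318 at week 12 (7.88 FPKM) and of HFD414 at week 16 (5.25 FPKM) and highest in the liver of CD208 at week 8 (1.25 FPKM). Both low islet values of E2f1 were still above all CD libraries of their week. Islets of HFD318 also had the highest Ccnd1 of their group (45.44 FPKM). Mcm6 was high in islets of CD203 at week 8 (6.92 FPKM) and of HFD518 at week 20 (4.28 FPKM), and low in the livers of CD501 at week 20 (0.70 FPKM) and of CD601 at week 24 (0.77 FPKM). Pcna was high in islets of HFD616 at week 24 (23.90 FPKM).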

How the results depend on the processing

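Of the mean diet effects, 26 of 31 called genes in islets and 7 of 12 in liver stayed called under all alternatives in which they were tested, as did 27 of 29 for islets minus liver, and no called gene changed sign. A mouse block, which pairs islets and liver, raised the last count from 29 to 31, and HFD and CD mice share no numbers that could pair them. Counts of mean effects ranged from 30 to 34 in islets, from 10 to 13 in liver and from 28 to 31 between tissues when single libraries were left out. In liver 7 genes were called without week 12, which was chosen after seeing the data, as were the fits without other weeks or marker-rich libraries. Requiring 1 FPKM in 4 libraries left 15 genes for liver, of which 7 were called, and 10 of 15 between tissues. Under it 5 genes were called in at least 1 week in islets and 4 in liver, 1 rose in CD and 2 in HFD livers. Counts of trends also moved. In CD islets 28 genes were called with a pseudocount of 1, 22 with median ratio scaling, 7 with insulin left out, 9 without the T cell-rich libraries and 4 to 18 when single libraries were left out. In HFD islets a pseudocount of 1 gave 13, and single libraries gave 15 to 22. Late minus early weeks gave 20 in CD and 25 in HFD islets, not all of them lower. In CD livers late minus early weeks gave 8, a pseudocount of 1 gave 9, and single libraries 9 to 15. In HFD livers late minus early weeks gave 3, and single libraries 2 to 8. In at least 1 week, 15 to 25 islet genes and 3 to 13 liver genes were called without single libraries, and 5 liver genes with a pseudocount of 1. With median ratio scaling Pcna in liver turned to -0.055, without a call in either fit. The causes of these changes were not tested, other than the smaller number of genes under the stricter filter. The planned count-based alternative was not run because the table holds FPKM. Values near 0.01 FPKM have 1 digit, so that fold changes of genes at such levels depend on the pseudocount.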
